A study of Homo sapiens with 6 samples.

Results

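The ZNF genes are the human genes whose symbol is ZNF followed by a number, and most of them encode proteins with tandem C2H2 zinc fingers. The table lists 477 such symbols among 15832 genes, and 125 of them were chosen by a mean of at least 5 TPM in the 3 control libraries. TPM is a share of transcripts scaled for transcript length and set to the same total in every library, so levels can be set side by side between genes. The cells were AsPC-1, an established human pancreatic cancer line, kept for 48 h after transfection of a control siRNA (the 3 siControl libraries) or of siRNA against VCPIP1 (the 3 siVCPIP1 libraries). All 6 libraries carried a transfected siRNA, and no untransfected cells were part of the comparison. VCPIP1 is a deubiquitinase that partners the p97/VCP ATPase. How many different siRNAs were used is not in the labels, and neither is the origin of the 3 libraries of each group. Each p-value below is therefore set only by how much these 6 libraries scatter, a scatter that may be purely technical.

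A C2H2 finger is a short loop held around a zinc ion by a pair of cysteines and a pair of histidines, and a row of such fingers reads a row of DNA bases. Fingers in tandem are joined by a short conserved linker, which is why even distantly related ZNF genes share a recognisable repeat. The largest class carries a KRAB box at the amino end, which binds the co-repressor TRIM28 (KAP1). TRIM28 in turn brings the histone methyltransferase SETDB1, heterochromatin proteins and the NuRD deacetylase complex, and this machinery is best known for silencing transposable elements. KRAB genes lie in large clusters on chromosome 19. Other ZNF proteins bind RNA, ribosomes or spindle proteins and are not transcription factors.

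The targeted gene was read first. VCPIP1 stood at 2.93, 3.06 and 2.24 TPM in siControl and at 0.12, 0.11 and 0.27 TPM in siVCPIP1. The groups did not overlap, and the log2 fold change was -1.68 (SE 0.13, adjusted p = 2e-05 by limma on log2(TPM + 1), 3 libraries against 3). A two-sided exact permutation test gave p = 0.1, the smallest p that 3 against 3 allows. After each library's trend on transcript GC content and length was removed, the VCPIP1 difference was 0.27 (adjusted p = 0.065 by limma), so the call and its direction rest on the uncorrected scale. Lower calls made up 66.0% of all genes tested. They made up 98.2% of genes outside the ZNF set under 45% GC with at least 5 TPM in siControl, a level that VCPIP1 (38.6% GC) did not reach. The fall of VCPIP1 therefore cannot by itself check the labels or the knockdown.

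The libraries of the 2 groups differed as a whole. A siControl library had a median of 6.77 ± 0.63 TPM over its genes and a siVCPIP1 library 1.59 ± 0.58 TPM (SD, n = 3 each). Within the 125 ZNF genes, the 10 highest held 27.9% ± 1.3 and 47.2% ± 5.4 of the TPM of that set. No read counts were given, so the depth is unknown. SiVCPIP1 replicate 3 stood apart from the other 2 siVCPIP1 libraries, with a median TPM of 2.26 against 1.26 and 1.24. The 3 keratins of the epithelial marker list were high in all libraries (KRT8 averaged 5495.2 and 6851.5 TPM in siControl and siVCPIP1), whereas EPCAM averaged 171.9 and 5.96 TPM and CDH1 28.9 and 0.677 TPM. MUC1 averaged 55.4 and 20.4 TPM and CEACAM6 2.38 and 0.307 TPM, so every epithelial marker other than the keratins averaged lower in siVCPIP1. Summed, the 7 epithelial markers ranged from 13862 to 15982 TPM in siControl and from 20933 to 23734 TPM in siVCPIP1. Nearly all of that sum came from the 3 keratins. The 5 fibroblast markers measured summed to 45.3 to 69.0 and 1.5 to 4.51 TPM, nearly all of it LUM (56.0 and 2.01 TPM on average). None of the markers measured was at 0 in every library. Of 4 immune markers CD68 averaged 144.8 and 139.7 TPM and PTPRC stayed under 1 TPM. Of 2 endothelial markers PECAM1 averaged 1.12 and 0.46 TPM, and the acinar marker PRSS1 stayed under 1 TPM in both groups. Whether any of these differences has a part in the ZNF values was not tested, and in such bulk libraries fewer cells of a type and less RNA per cell cannot be told apart.

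All 125 ZNF genes averaged at least 1 TPM over all libraries, the filter for testing. In siVCPIP1, 68 of them (54.4%) were called lower, 29 (23.2%) were called higher and 28 were not called at an adjusted p of 0.05. Over all 10966 genes tested, limma called 81.0%, with 66.0% lower and 15.0% higher. Over the 8694 genes that also had at least 5 TPM in siControl, it called 81.6%, with 65.6% lower and 16.0% higher. The ZNF genes thus held a smaller share of lower calls and a larger share of higher calls than either background. Because the genes were selected on their siControl level, these counts describe the set and test nothing about it.

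The median log2 fold change of the 125 genes was -0.63, with a range from -3.62 to 1.43. It was -1.12 over all genes tested and -1.20 over genes with at least 5 TPM in siControl. The zero of this scale depends on how the libraries are scaled. Under median-of-ratios scaling, quantile normalization and the GC and length correction, the median of all genes moved to -0.14, 0.04 and 0.07, and that of the ZNF genes to 0.48, 0.84 and 0.45. The ZNF median stood above that of all genes in each of these settings, but its sign reversed. Read against the median of all genes, the uncorrected ZNF median was therefore the less lowered one, and an individual gene described below as lower is lower on the deposited TPM scale.

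**Figure D1:**
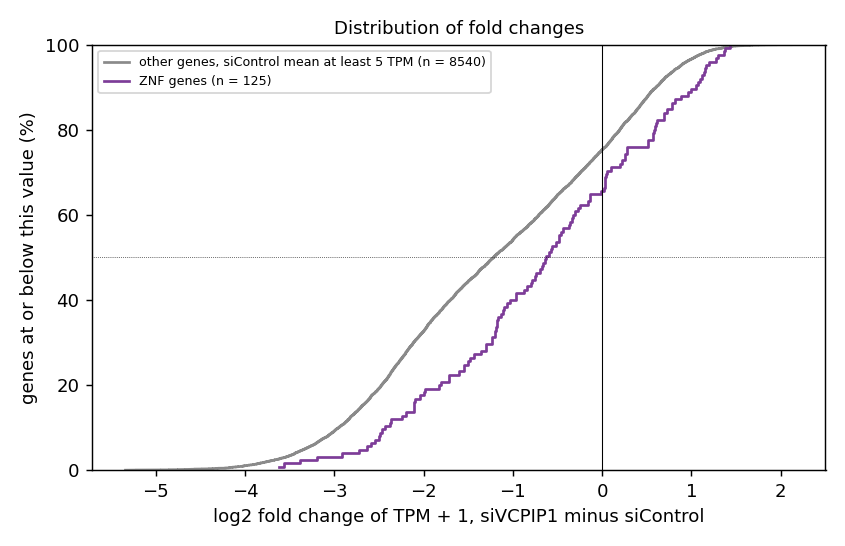
Cumulative distribution of the log2 fold change (horizontal axis, log2 of TPM + 1, siVCPIP1 minus siControl) over genes with a siControl mean of at least 5 TPM. The vertical axis is the percentage of genes at or below each value. The purple line holds the 125 ZNF genes and the grey line the 8540 other genes with a transcript GC value. The ZNF line lies to the right of the other genes over most of its range and crosses 50% at a median of -0.63, against -1.21 for genes that are not ZNF members.

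In 106 of the 125 genes (84.8%) the siVCPIP1 libraries did not overlap the siControl libraries, 73 below and 33 above. The same held for 86.0% of all genes tested and 86.9% of genes with at least 5 TPM in siControl, so the ZNF share stood near the background. As ratios of mean TPM, 52 genes were under 0.5 of their siControl level, 30 under 0.25 and 11 under 0.1, while 14 were over 2. Together the 125 genes held 1971 ± 109 TPM per siControl library and 2131 ± 16.5 TPM per siVCPIP1 library (SD, n = 3 each), so the falls and the rises nearly balanced as a share of transcripts. The number of the 125 genes at 5 TPM or more was 121.7 ± 2.31 per siControl library and 69.67 ± 8.14 per siVCPIP1 library. The rule that chose the genes set the siControl count close to 125. Over all 477 ZNF symbols, without that rule, the numbers were 127.7 ± 4.51 and 75.33 ± 7.57. Over all genes they were 8683 ± 234 and 5579 ± 565, so the number of genes at that level was lower in the siVCPIP1 libraries as a whole.

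SiVCPIP1 replicate 3 was the highest of the 3 siVCPIP1 libraries in 67 of the 68 lower genes, at a median of 1.82 times the mean of the other 2. It was the lowest of the 3 in 21 of the 29 higher genes, at a median of 0.85 times that mean. Without it, 76 genes were called lower and 30 higher, and all 68 and all 29 of the original calls were among them. Among siControl libraries, replicate 3 was the lowest in 24 of the 29 higher genes and in 28 of the 68 lower genes. The coefficient of variation of a gene within a group had a median of 10.9% in siControl and 23.1% in siVCPIP1.

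**Figure D2:**
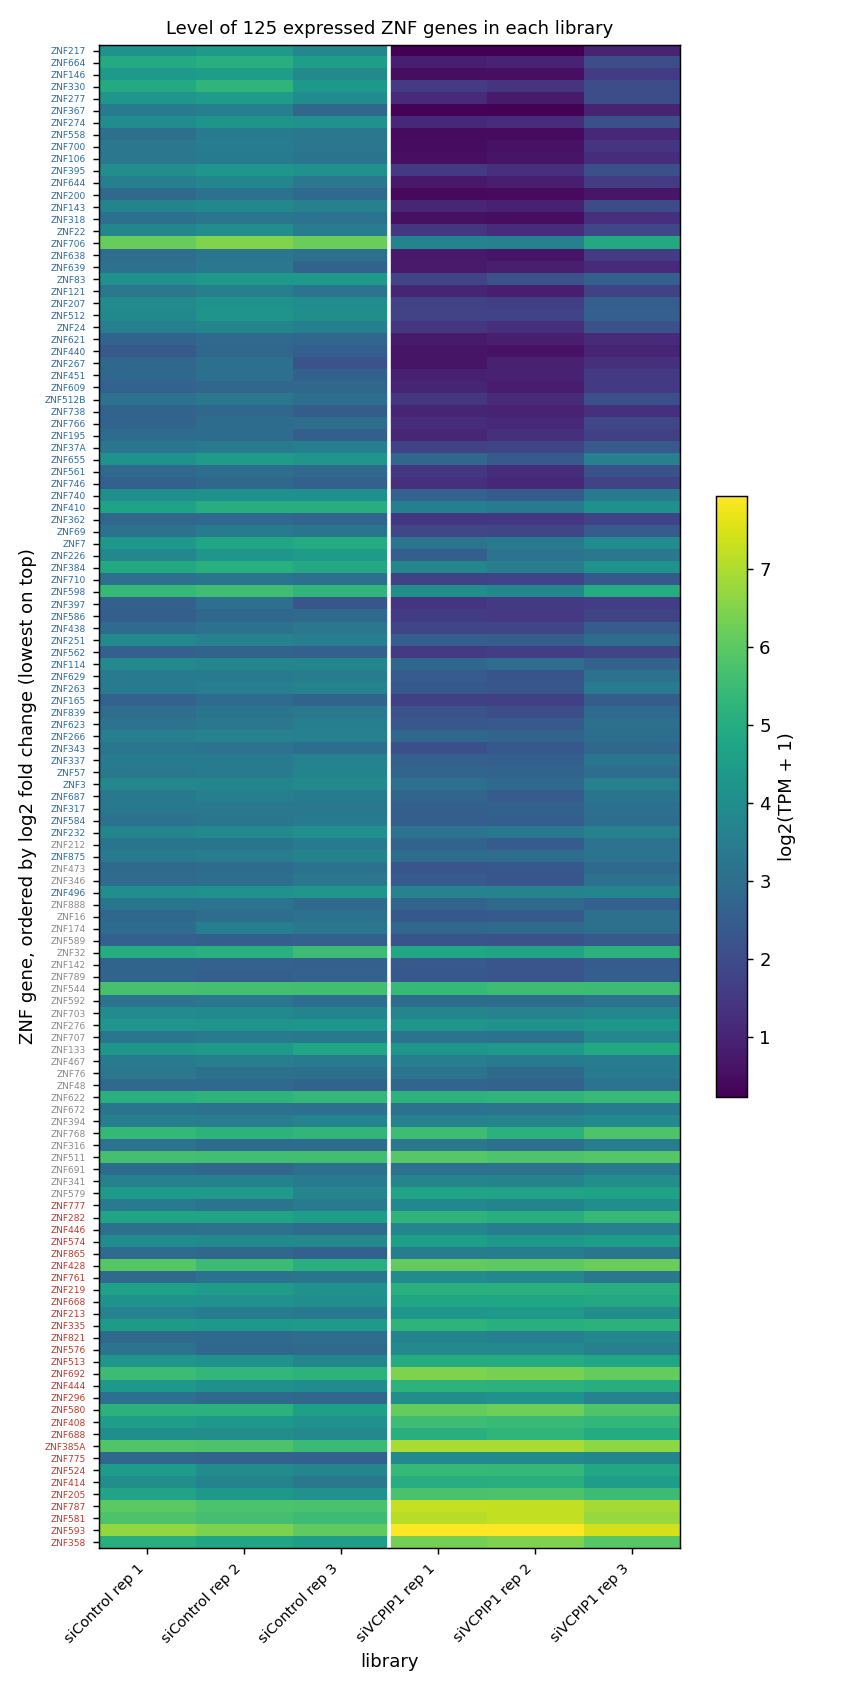
Level of each of the 125 ZNF genes (rows, ordered by log2 fold change with the lowest on top) in each of the 6 libraries (columns), coloured by log2(TPM + 1). Gene names are blue for the 68 called lower, red for the 29 called higher and grey for the 28 not called. The 3 siVCPIP1 columns are darker at the top and brighter at the bottom than the siControl columns, and replicate 3 lies between the other 2 siVCPIP1 libraries and siControl in most of the lower rows.

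The lower and the higher genes differed in the base composition of their transcripts, and a difference can also be seen in finger repeats of some of them. For the ZNF genes that hold a complete finger followed by the conserved linker, a window of 81 bases can be cut from the coding sequence at the same place in the repeat. Such a window was found in 61 of the 125 genes. The windows below come from 4 of the genes with the largest falls and 4 of those called higher, all from the last exon of the transcript used (GENCODE release 29, GRCh38), written 5′ to 3′ on the coding strand. Capitals mark the codons of the linker and of the aromatic residue that opens the next finger. The lower genes come first, ZNF664 (chr12:124012409-124012489, plus strand), ZNF146 (chr19:36236660-36236740, plus strand), ZNF558 (chr19:8811950-8812030, minus strand) and ZNF700 (chr19:11948694-11948774, plus strand).
ZNF664: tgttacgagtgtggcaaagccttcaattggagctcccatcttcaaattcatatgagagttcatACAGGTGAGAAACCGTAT
ZNF146: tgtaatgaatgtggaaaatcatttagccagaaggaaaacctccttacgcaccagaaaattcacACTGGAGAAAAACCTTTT
ZNF558: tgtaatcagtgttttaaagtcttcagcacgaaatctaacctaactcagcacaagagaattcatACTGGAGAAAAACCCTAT
ZNF700: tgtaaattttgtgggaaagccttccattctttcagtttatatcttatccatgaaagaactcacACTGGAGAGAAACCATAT

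The windows of higher genes came from ZNF787 (chr19:56088806-56088886, minus strand), ZNF205 (chr16:3119588-3119668, plus strand), ZNF775 (chr7:150396806-150396886, plus strand) and ZNF408 (chr11:46705108-46705188, plus strand).
ZNF787: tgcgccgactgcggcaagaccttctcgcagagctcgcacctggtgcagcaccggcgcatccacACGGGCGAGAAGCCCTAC
ZNF205: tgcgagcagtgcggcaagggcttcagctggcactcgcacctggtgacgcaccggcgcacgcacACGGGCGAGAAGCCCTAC
ZNF775: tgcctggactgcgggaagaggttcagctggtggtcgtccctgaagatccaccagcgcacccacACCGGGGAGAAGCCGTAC
ZNF408: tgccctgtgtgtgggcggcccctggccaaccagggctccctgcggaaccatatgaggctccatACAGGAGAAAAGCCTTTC

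These windows encode the same finger plan in different codons. The GC content was 42.0%, 37.0%, 35.8% and 34.6% in the windows of ZNF664, ZNF146, ZNF558 and ZNF700, and 67.9%, 69.1%, 64.2% and 61.7% in those of ZNF787, ZNF205, ZNF775 and ZNF408. At the last base of each codon, where most changes leave the residue unaltered, G or C stood at 40.7%, 33.3%, 37.0% and 25.9% of codons in the 4 lower genes. It stood at 100% in ZNF787, ZNF205 and ZNF775 and at 70.4% in ZNF408. Over all 61 windows the median GC at the last codon base was 40.7% in 36 lower genes (18.5% to 100%), 64.8% in 16 genes not called (33.3% to 100%) and 88.9% in 9 higher genes (40.7% to 100%), so the ranges overlapped.

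The same order held for whole transcripts. The median GC content of the transcript was 45.1% in the 68 lower genes (36.1% to 65.0%), 54.8% in the 28 not called (40.8% to 68.3%) and 63.2% in the 29 higher (40.1% to 71.1%). Across the 125 genes, GC content and log2 fold change correlated at r = 0.76 (rho 0.77), a description over genes that share the same 6 libraries. Across the 8665 genes with at least 5 TPM in siControl and a GC value, r was 0.76 (rho 0.77) as well, so the slope with GC was not particular to the ZNF genes. Among the 35 ZNF genes under 45% GC, 33 were called lower (94.3%, against 98.2% of the other genes of that band), with a median log2 fold change of -1.83 against -2.41 for the 2588 other genes of that band. Among the 36 ZNF genes at 60% GC or more, 23 were called higher and 4 lower (63.9% and 11.1%, against 50.1% and 15.7% of the other genes), with a median of 0.59 against 0.39 for the 1594 other genes of the band. In the 3 bands between, from 45 to 50, 50 to 55 and 55 to 60% GC, the ZNF medians were -0.80, -0.46 and -0.35, against -1.84, -0.88 and -0.18 for other genes.

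**Figure D3:**
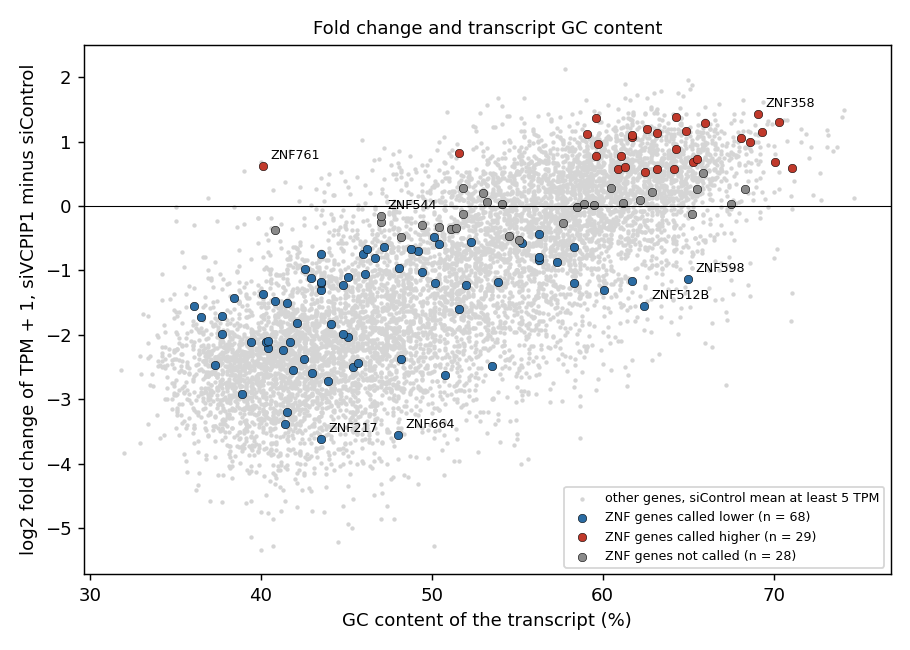
Log2 fold change (vertical axis, log2 of TPM + 1, siVCPIP1 minus siControl) against the GC content of the transcript (horizontal axis, %). Each large point is 1 ZNF gene, coloured by its call, and the small grey points are other genes with at least 5 TPM in siControl. Both sets rise from left to right with r = 0.76, and ZNF761 at 40.1% GC and ZNF598 at 65.0% GC lie away from the trend.

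Coding GC gave r = 0.70 with the log2 fold change, GC at the last base of codons 0.67, and the GC of the 3′ untranslated region 0.74 in the 121 genes where it was long enough to measure. Transcript length gave r = -0.49: the median transcript was 3622 nucleotides in lower genes and 2300 in higher genes. The number of fingers gave r = 0.09. The GC content of the promoter, taken as 250 bases before to 50 after the RefSeq start (GRCh38, 103 of the 125 genes matched), gave r = 0.10, with medians of 64.0% in lower genes and 66.0% in higher genes. The promoters of the lower and the higher genes thus had similar GC content, while their transcripts did not.

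In the 103 promoters matched, 4 of the 5 motifs searched were present at a higher share than in all promoters, a difference that was not tested. The median promoter GC was 64.3% in the 103 and 58.3% in all promoters, which were taken whatever the level of their genes. Counting matches on either strand, GGGCGG (the GC box) was present in 69.9% of the 103 ZNF promoters against 44.6% of all 27305 promoters of that length, and CCGGAAG (an ETS site) in 39.8% against 10.7%. TGACGTCA (the cAMP response element) was present in 10.7% against 2.0%, and ACTACAA (part of the element bound by ZNF143) in 7.8% against 3.0%. TATAAA was found in 1.9% against 12%. Between the 56 lower and 26 higher ZNF genes with a promoter, the GC box stood at 78.6% and 53.8%, the ETS site at 44.6% and 34.6% and the ZNF143 letters at 7.1% and 7.7%. None of the searched motifs contains another, and a match is a run of letters, not a shown site.

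The largest falls were among genes of very different function. ZNF217 (chr20:53567065-53609907, GRCh38), an oncogene that is amplified in several carcinomas and encodes a repressor working with CtBP and CoREST, stood at 17.05, 19.74 and 12.78 TPM in siControl and 0.18, 0.17 and 1.0 TPM in siVCPIP1. The groups were far apart, replicate 3 of siVCPIP1 being the highest of its group, and the log2 fold change was -3.62 (SE 0.26, adjusted p = 2e-05). ZNF664 stood at 29.95, 33.48 and 22.19 TPM and then at 0.85, 0.96 and 3.18 TPM. All siVCPIP1 values of ZNF664 were below all siControl values, with a log2 fold change of -3.56 (SE 0.33, adjusted p = 2.3e-05). ZNF146 (OZF), a protein made almost only of fingers, fell from 20.17, 22.20 and 13.79 TPM to 0.44, 0.46 and 2.02 TPM, a log2 fold change of -3.39 (SE 0.32, adjusted p = 2.5e-05). ZNF330, a nucleolar protein, fell from 29.90, 38.12 and 19.25 TPM to 1.94, 1.61 and 3.17 TPM, a log2 fold change of -3.19 (SE 0.29, adjusted p = 2.2e-05). These 4 genes, with transcripts of 41.4% to 48.0% GC, stayed called lower under each scaling and after the GC correction, which left log2 fold changes of -1.71, -1.99, -1.17 and -0.80.

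The other 6 of the 10 largest falls had log2 fold changes from -2.91 to -2.50. They were ZNF277, which binds a ribosomal protein, at 18.1 ± 3.4 and 1.71 ± 1.3 TPM (SD, n = 3 each here and below), ZNF367 at 8.61 ± 2.5 and 0.463 ± 0.42 TPM, and ZNF274 at 16.3 ± 1.4 and 1.93 ± 1.2 TPM. ZNF558 stood at 8.53 ± 0.93 and 0.617 ± 0.43 TPM, ZNF700 at 9.28 ± 0.89 and 0.843 ± 0.68 TPM, and ZNF106 at 9.02 ± 0.86 and 0.813 ± 0.49 TPM. In all 6 the groups did not overlap. Without the GC trend ZNF700 was not called (-0.23), and the other 5 remained lower.

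The largest rises came from GC-rich transcripts. ZNF358 (chr19:7515292-7521026) stood at 33.37, 26.60 and 22.47 TPM in siControl and 78.77, 87.28 and 60.62 TPM in siVCPIP1, a log2 fold change of 1.43 (SE 0.20, adjusted p = 0.00017). ZNF593, whose yeast relative works in assembly of the large ribosomal subunit, had the highest level of the 125 genes. It stood at 101.97, 85.19 and 65.64 TPM and then at 241.77, 245.28 and 173.85 TPM, with no overlap and a log2 fold change of 1.38 (SE 0.20, adjusted p = 0.00021). The exons of ZNF593 lie wholly within an antisense gene, AL391650.1, and since the strand setting is not given, the reads of the 2 genes cannot be told apart. ZNF581 rose from 54.08, 49.97 and 44.48 TPM to 137.58, 148.45 and 106.52 TPM, and ZNF787 from 63.51, 53.43 and 51.86 TPM to 152.45, 148.28 and 119.79 TPM. Their log2 fold changes were 1.37 and 1.30 (SE 0.16 and 0.15), with adjusted p = 6.7e-05 and 6e-05 by limma.

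ZNF385A, an RNA-binding protein that also modulates p53, rose from 56.87, 54.50 and 44.18 TPM to 124.78, 123.90 and 97.75 TPM, a log2 fold change of 1.14 (SE 0.16, adjusted p = 0.00018). ZNF205 stood at 20.3 ± 4.7 and 50.3 ± 4.8 TPM (log2 fold change 1.28), ZNF414 at 12.2 ± 3.1 and 29.2 ± 5.9 TPM (1.20), and ZNF524, a telomere-binding protein, at 15.9 ± 4.5 and 36.6 ± 7.3 TPM (1.17). ZNF775 stood at 5.51 ± 0.38 and 13.5 ± 0.65 TPM (1.15) and ZNF688 at 14.9 ± 1.4 and 33.7 ± 3.7 TPM (1.12). In all 10 of the largest rises the groups did not overlap, and siControl replicate 3 was the lowest control library of each. All 29 higher genes were also called higher under median-of-ratios scaling and quantile normalization, and 25 of the 29 after the GC correction. Of the 68 lower genes, 35, 26 and 20 were still called lower in these 3 settings and 10, 27 and 29 were called higher.

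**Figure D4:**
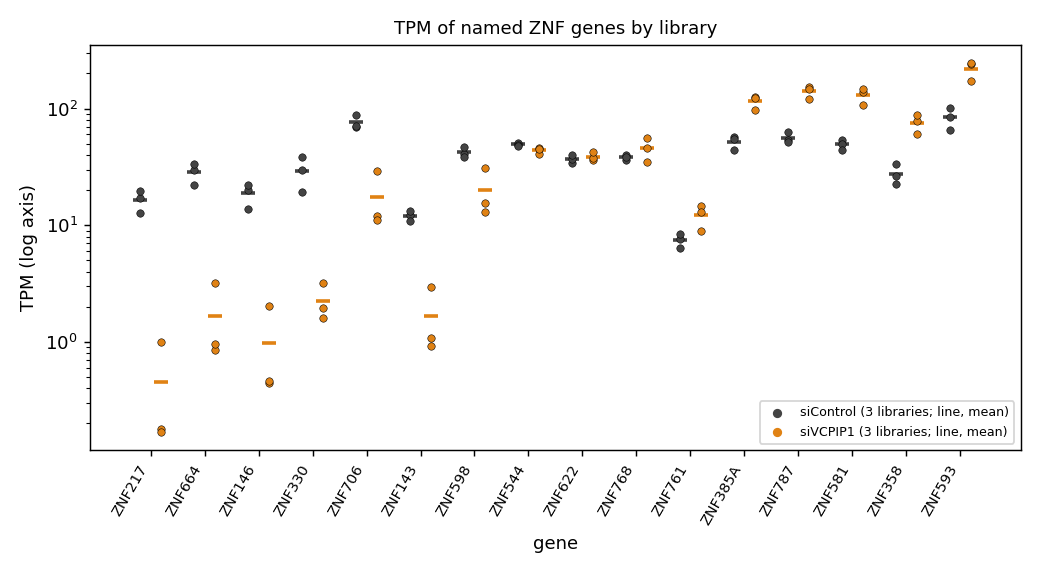
TPM (vertical axis, log scale) of 16 ZNF genes in each library, in siControl (dark points) and siVCPIP1 (orange points), with the group mean as a line (n = 3 each). ZNF217 averages 16.5 and 0.45 TPM, while ZNF593 averages 84.3 and 220.3 TPM, and the points of ZNF622 and ZNF768 overlap between the groups.

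The order of levels changed with these movements. In siControl the 6 genes with the highest mean were ZNF593 at 84.3 ± 18.2 TPM, ZNF706 at 76.5 ± 10.5, ZNF787 at 56.3 ± 6.3, ZNF385A at 51.9 ± 6.7, ZNF581 at 49.5 ± 4.8 and ZNF544 at 49.3 ± 1.5 (SD, n = 3 each). Neighbours in that order differed by less than their spread, except ZNF706 and ZNF787. Of the 10 highest genes in siControl 6 were called higher and 2 lower. Of the 10 highest in siVCPIP1, 9 were among the 29 higher genes, and 7 genes were on both lists. A ranking by siVCPIP1 level favours genes that rose there, so the count of 9 describes the order and tests nothing. ZNF706 fell from 69.49, 88.55 and 71.39 TPM to 11.99, 11.07 and 28.95 TPM, a log2 fold change of -2.20 (SE 0.33, adjusted p = 0.00024) that turned to 0.09 after the GC correction (transcript GC 40.4%). ZNF544 was not called, at 51.07, 48.78 and 48.18 TPM and 41.15, 46.16 and 44.75 TPM, with all siVCPIP1 values below all siControl values (log2 fold change -0.16, adjusted p = 0.28), and it was called higher under each of the other scalings and the GC correction (0.49 to 1.60). By siControl level, 36 of the 61 genes at 5 to 10 TPM were lower and 8 higher (59.0% and 13.1%). Of the 39 genes at 10 to 20 TPM, 25 were lower and 9 higher (64.1% and 23.1%). Of the 25 genes at 20 TPM or more, 7 were lower and 12 higher (28.0% and 48.0%), with a median log2 fold change of 0.26. The median transcript GC at these levels was 50.4%, 50.8% and 61.1%. Over all genes with at least 5 TPM in siControl, not split by level, 65.6% were lower and 16.0% higher. Of genes outside the set at 60% GC or more, 50.1% were higher.

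Among ZNF proteins with roles in chromatin and transcription, ZNF143, an activator of many housekeeping and small nuclear RNA genes, fell from 12.17, 13.13 and 10.93 TPM to 1.08, 0.92 and 2.97 TPM. Its groups did not overlap and its log2 fold change was -2.38 (SE 0.28, adjusted p = 7e-05), but it was not called after the GC correction (-0.12). ZNF644, a partner of the G9a and GLP methyltransferases, stood at 10.8 ± 2.0 and 1.18 ± 0.73 TPM (-2.47), and ZNF638, which works with the HUSH silencing complex, at 7.64 ± 0.83 and 1.08 ± 0.77 TPM (-2.11). ZNF274, a KRAB protein that brings SETDB1 to the ends of other zinc finger genes, is given above. ZNF395 stood at 16.6 ± 1.8 and 2.21 ± 0.98 TPM (-2.49), ZNF639 at 7.39 ± 1.7 and 0.93 ± 0.28 TPM (-2.11), and ZNF24 at 11.2 ± 0.96 and 2.19 ± 1.1 TPM (-1.98), the last of which turned to 0.15 after the GC correction. Each of these 7 genes was called lower on the deposited scale and had no overlap between groups, and ZNF638 and ZNF639 were not called after the correction (-0.04 and -0.02).

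Of the ZMYND8 partners ZNF687 and ZNF592, ZNF687 stood at 9.88 ± 0.82 and 6.19 ± 2.0 TPM and ZNF592 at 7.87 ± 0.80 and 7.09 ± 0.66 TPM (SD, n = 3). ZNF687 was called lower (log2 fold change -0.63, adjusted p = 0.033), a call that was lost without siControl replicate 1, 2 or 3 or siVCPIP1 replicate 1 or 2, with the replicate number as a block (adjusted p = 0.063) and after the GC correction (-0.0049), and the value turned to 0.45 and 0.90 under the 2 scalings. ZNF592 was not called (-0.13, adjusted p = 0.52), and its groups overlapped. ZNF263, a repressor of genes of heparan sulfate synthesis, stood at 9.34, 10.56 and 11.68 TPM and then at 4.13, 3.93 and 9.40 TPM. Its groups overlapped through siVCPIP1 replicate 3, and its call (log2 fold change -0.84, adjusted p = 0.027) was likewise lost without any 1 of the other 5 libraries and after the GC correction (-0.16), and the value turned to 0.23 and 0.71 under the 2 scalings. ZNF703, a co-repressor amplified in luminal breast cancer, stood at 13.5 ± 1.4 and 12.2 ± 0.67 TPM, with overlap and no call (-0.13, adjusted p = 0.51). ZNF768 was not called either, at 38.3 ± 1.8 and 45.6 ± 10.5 TPM (0.22, adjusted p = 0.30). Under median-of-ratios scaling and quantile normalization, ZNF592 (0.95 and 1.36), ZNF703 (1.01 and 1.21) and ZNF768 (1.42 and 0.96) were called higher. After the GC correction ZNF592 was called higher (1.05), ZNF703 lower (-0.32, adjusted p = 0.013 by limma) and ZNF768 was not called (-0.07).

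ZNF proteins that act on RNA, ribosomes, ubiquitin-like proteins or the spindle went different ways. ZNF622, which works in maturation of the large ribosomal subunit, stood at 34.12, 37.12 and 40.12 TPM in siControl and 36.36, 37.68 and 42.15 TPM in siVCPIP1. The groups overlapped almost fully, and the log2 fold change was 0.06 (SE 0.15, adjusted p = 0.71). ZNF622 was nevertheless called higher under median-of-ratios scaling (1.26), quantile normalization (0.83) and the GC correction (0.74). ZNF598, the ubiquitin ligase that marks collided ribosomes, stood at 40.86, 46.99 and 38.52 TPM and 15.62, 13.10 and 31.11 TPM. All siVCPIP1 values of ZNF598 were lower (log2 fold change -1.13, adjusted p = 0.0058), siVCPIP1 replicate 3 stood closer to the siControl values than to the other siVCPIP1 libraries, and the value turned to 0.05 under median-of-ratios scaling. At 65.0% GC ZNF598 was an exception to the GC trend, with -1.30 after the correction. ZNF207 (BuGZ), which loads the checkpoint protein BUB3 at kinetochores, stood at 15.3 ± 1.4 and 3.10 ± 1.5 TPM (log2 fold change -2.04, and 0.02 after the GC correction). ZNF451, a SUMO ligase, stood at 6.17 ± 1.1 and 1.22 ± 0.58 TPM (-1.71, and 0.26 after the correction). ZNF346, which binds double-stranded RNA, was not called, at 7.46 ± 1.1 and 5.29 ± 2.0 TPM with overlap (-0.46, adjusted p = 0.12), and was called higher under the 2 scalings (0.59 and 1.10).

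Proteins were sorted by whether a KRAB box pattern was found in the translated coding sequence. Of 38 genes with the pattern, 27 were called lower and 4 higher (71.1% and 10.5%), with a median log2 fold change of -0.85. Of 87 without it, 41 were lower and 25 higher (47.1% and 28.7%), with a median of -0.44. The median transcript GC was 47.0% and 56.3%. Over all genes tested 66.0% were lower and 15.0% higher, so the shares of the KRAB class stood near that background. On chromosome 19, which held 38 of the 125 genes, 17 of the 20 KRAB genes were lower and 1 higher (85.0% and 5.0%, median -1.04, GC 43.5%). Of the 18 genes there without the pattern, 3 were lower and 13 higher (16.7% and 72.2%, median 0.71, GC 62.2%). Of genes outside the set with at least 5 TPM in siControl, 98.2% were lower under 45% GC and 50.1% higher at 60% GC or more. On the other chromosomes the 2 classes had medians of -0.66 (18 genes, 49.8% GC) and -0.75 (69 genes, 53.5% GC).

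Before the GC correction, the order of the 2 classes was not the same in genes under and over 50% GC. Under 50% GC, 21 of 25 KRAB genes were lower (84.0%), with a median of -1.10. Of 29 genes without the pattern 27 were lower (93.1%), with a median of -2.11. Genes outside the set with at least 5 TPM in siControl were lower in 98.2% under 45% GC and in 90.5% from 45 to 50% GC. At 50% GC or more, 6 of 13 KRAB genes were lower and 3 higher (46.2% and 23.1%, median -0.33). Of 58 genes without the pattern, 14 were lower and 25 higher (24.1% and 43.1%, median 0.24). The median transcript GC with and without the pattern was 43.5% and 42.9% under 50% GC. At 50% GC or more it was 55.3% and 61.2%, so the classes there were not alike in GC. After the GC correction the medians with and without the pattern were 0.86 and 0.01 under 50% GC, and 0.50 and 0.43 at 50% or more. Over the bands from 50% GC up, lower calls in genes outside the set went from 67.5% to 15.7% and higher calls from 9.21% to 50.1%. A finger pattern was found in 120 of the 125 proteins, with a median of 7 and at most 31 fingers, in ZNF142. The 18 genes with 0 to 2 fingers had a median log2 fold change of -1.58, against -0.44, -0.74 and -0.48 in genes with 3 to 5, 6 to 9 and 10 or more fingers.

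**Figure D5:**
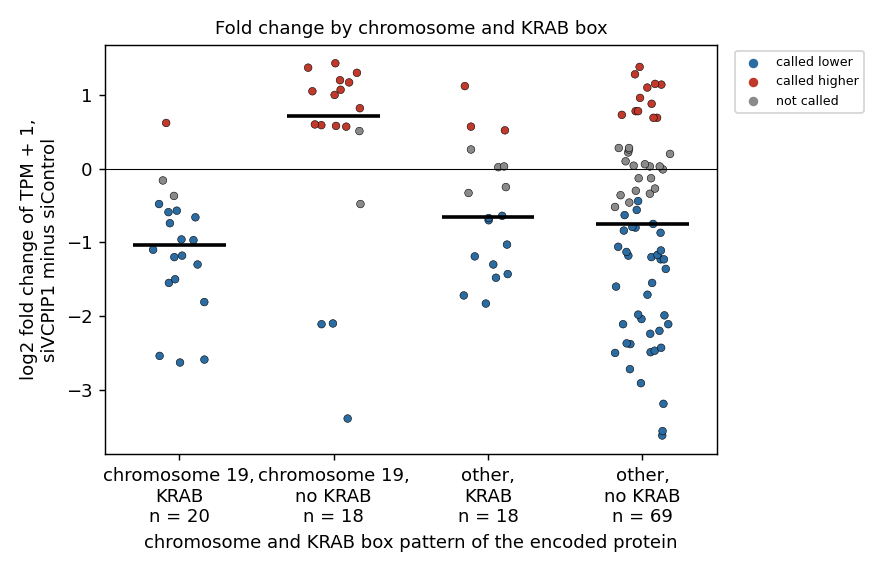
Log2 fold change (vertical axis, log2 of TPM + 1, siVCPIP1 minus siControl) of the 125 ZNF genes by chromosome (19 or other) and KRAB box pattern (horizontal axis). Each point is 1 gene coloured by its call, the sideways spread within a class has no meaning, and the bar is the class median. On chromosome 19 the medians are -1.04 with and 0.71 without the KRAB pattern, and on other chromosomes they are -0.66 and -0.75.

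ZNF761 went against the GC trend in the other direction from ZNF598. It is a KRAB gene of chromosome 19 with 40.1% GC, and it stood at 6.35, 7.59 and 8.36 TPM in siControl and 14.61, 13.05 and 8.87 TPM in siVCPIP1. The groups did not overlap, siVCPIP1 replicate 3 came close to siControl, and the log2 fold change was 0.62 (SE 0.23, adjusted p = 0.03) and 2.87 after the GC correction. Of its transcript, more than 10% of 50-base windows also occur in other genes, most often in ZNF525. Reads of ZNF761 and these genes could be split by the counting. The other 3 genes called lower at 60% GC or more were ZNF512B, ZNF710 and ZNF746. ZNF512B (62.4% GC) stood at 7.56, 8.85 and 7.08 TPM and 1.77, 1.28 and 3.32 TPM (-1.55, adjusted p = 0.00045, and 0.08 under quantile normalization). ZNF746 (60.1% GC) had a log2 fold change of -1.30 (adjusted p = 0.00049) and ZNF710 (61.7% GC) of -1.17 (adjusted p = 0.00099), and both turned to called higher under quantile normalization (0.30 and 0.46). After the GC correction ZNF512B, ZNF746 and ZNF710 stayed lower, at -1.18, -0.99 and -0.90. ZNF761 and these 3 genes were picked for this description after their values were seen. Shared windows over that limit were also found for ZNF562 (most often with ZNF561) and ZNF888 (most often with ZNF701), and 13 genes overlap an exon of another gene over more than 20% of their length. The 16 genes so marked had a median log2 fold change of -0.33, and the 109 others -0.64.

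The partners of KRAB proteins were read from a list of 29 co-repressor and heterochromatin genes, all of which passed the filter. Of these, 25 were called lower, 1 higher and 3 were not called, with a median log2 fold change of -1.55 and a median transcript GC of 49.4%. Lower calls made up 66.0% of all genes tested and 90.5% of other genes with 45 to 50% GC and at least 5 TPM in siControl, and after the GC correction the median of the list was -0.18. TRIM28, the scaffold that KRAB boxes bind, was the one called higher, at 115.2 ± 7.9 and 142.0 ± 2.7 TPM (log2 fold change 0.30, adjusted p = 0.042). This call was lost without siControl replicate 2 or 3 or siVCPIP1 replicate 1 or 2, and after the GC correction. SETDB1, the methyltransferase recruited by TRIM28, stood at 18.7 ± 2.8 and 12.3 ± 4.6 TPM and was not called (-0.61, adjusted p = 0.055). Its cofactor ATF7IP was called lower at 7.94 ± 0.66 and 2.22 ± 0.80 TPM (-1.50), but was higher after the GC correction.

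The heterochromatin proteins CBX1, CBX3 and CBX5 were all lower, CBX1 most, at 57.4 ± 5.0 and 4.58 ± 3.9 TPM (-3.60, adjusted p = 4.9e-05). In the NuRD complex, the deacetylase HDAC2 stood at 55.8 ± 8.5 and 2.93 ± 2.8 TPM (-4.07, adjusted p = 3.2e-05), whereas HDAC1 stood at 107.1 ± 13.6 and 38.5 ± 18.98 TPM (-1.55, adjusted p = 0.0011) and the remodeller CHD3 was not called (-0.20, adjusted p = 0.25). HDAC1 stayed lower under quantile normalization (-1.05) but was not called under median-of-ratios scaling (-0.34) or after the GC correction (-0.11). The maintenance methyltransferase DNMT1 and its partner UHRF1 were lower by -2.87 and -3.11 on the log2 scale. Among the HUSH genes TASOR, MPHOSPH8 and PPHLN1 the log2 fold changes were -2.09, -1.21 and -2.74. MPHOSPH8 turned to called higher under quantile normalization (0.34) and the GC correction (0.78), and TASOR was not called after the correction (0.06). The G9a gene EHMT2 was not called (-0.10, adjusted p = 0.59) and its partner EHMT1 was lower (-0.89, adjusted p = 0.0023), a value that turned to 0.27 and 0.34 under the 2 scalings. CBX1, CBX3, CBX5, HDAC2, RBBP4, RBBP7, DNMT1, UHRF1, CHAF1B, PPHLN1 and ZNF644 stayed called lower under both scalings and after the GC correction.

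Genes close to the threshold of 5 TPM moved unequally. Just inside it, ZNF589, ZNF440 and ZNF562 averaged 5.01, 5.01 and 5.20 TPM in siControl and 3.79, 0.71 and 2.17 TPM in siVCPIP1. Just outside, ZNF627, ZNF600 and ZNF830 averaged 4.96, 4.95 and 4.94 TPM in siControl and 0.663, 1.18 and 0.487 TPM in siVCPIP1. In siControl, 177 of the 477 symbols averaged under 1 TPM and 175 between 1 and 5 TPM. In siVCPIP1, 76 of the 125 genes still averaged at least 5 TPM and 12 averaged under 1 TPM. A gene that reached 5 TPM only in siVCPIP1 could not enter the set, and 5 did: ZNF628 at 4.55 ± 1.1 and 11.0 ± 1.7 TPM, ZNF771 at 4.07 ± 0.25 and 9.94 ± 0.83, ZNF517 at 4.04 ± 0.23 and 7.74 ± 0.84, ZNF526 at 3.87 ± 0.095 and 6.17 ± 0.24, and ZNF784 at 2.13 ± 0.31 and 5.91 ± 0.99. With genes chosen by the mean of all 6 libraries, 45 of 103 were lower and 33 higher (43.7% and 32.0%). That rule includes the siVCPIP1 values, which favours genes that rose. Over all genes tested 66.0% were lower and 15.0% higher.

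Of 15 ZNF genes of known role that stayed under 5 TPM in siControl, the 8 that passed the filter were all called lower, against 76.5% of the 132 ZNF genes under 5 TPM that were tested. After the GC correction none of the 8 was lower, 5 being called higher and 3 not called. ZNF516 (-0.42, adjusted p = 0.048) was not called with a pseudocount of 0.1 (adjusted p = 0.077) and was higher under both scalings, and ZNF202 (-0.56) turned to 0.26 and 0.91 under them. The general repressor ZNF148 averaged 2.31 and 0.21 TPM, its relative ZNF281 averaged 2.72 and 0.227 TPM, and ZNF131 averaged 4.27 and 0.25 TPM. ZNF91 and ZNF93, the KRAB proteins that silence SVA and LINE-1 elements, averaged 1.06 and 0.053 TPM in siControl and were not tested. The related families with at least 5 TPM in siControl held few genes. Of 15 ZBTB genes 7 were lower and 4 higher (median log2 fold change -0.34), of 4 ZSCAN genes 3 were lower, and of 6 ZFP genes 4 were lower and 1 higher.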

How the data were processed

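RNA was sequenced from 3 siControl and 3 siVCPIP1 libraries of AsPC-1 cells. The authors deposited 1 table of TPM per gene symbol, with 2 decimals, per the file headers. Its genome build is GRCh38.p13 per the submitters' processing notes. Which aligner, counting tool, annotation and strand setting were used is not given in the sources used here. Since TPM holds no depth, no counting interval is given.

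The TPM as deposited were taken as log2(TPM + 1), which understates the change of low genes, and compared over the 10966 genes that averaged at least 1 TPM by limma 3.58.1 in R 4.3.3 (eBayes with trend, two-sided, Benjamini-Hochberg over all genes tested, threshold 0.05). The fit was tested on simulated data. Alternatives were a pseudocount of 0.1, no filter, median-of-ratios scaling, quantile normalization, removal of each library's spline trend on transcript GC (5 degrees of freedom) and log2 length (3), a replicate block, and each library left out.

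Members and gene lists were chosen with earlier results of these data known. Named genes are VCPIP1, the 6 highest members, the 10 largest falls and 10 largest rises among called members without overlap, 3 genes on either side of the threshold, members of known role (24 of 40 listed) and the co-repressor list. Genes outside this rule are named where a count or an exception calls for it. GC, length, fingers and KRAB boxes were read from 1 GENCODE release 29 transcript per gene and its translation, which was added with the data in view, and atypical KRAB boxes are missed. Promoters are from RefSeq (GRCh38).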

Additional observations from a re-analysis of the deposited data

How the results depend on the processing

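The pseudocount of 0.1 and the absence of a filter changed no call of the 41 genes of the set named by rule. Of the genes under 5 TPM, ZNF516 lost its call with that pseudocount (adjusted p = 0.077 by limma). Under median-of-ratios scaling, quantile normalization and the GC and length correction, ZNF genes called lower numbered 35, 26 and 23 and those called higher 67, 84 and 70, with medians of 0.48, 0.84 and 0.45. All genes called lower numbered 4258 under quantile normalization and 3463 after the GC correction, and those called higher 4416, 4625 and 4064 in the 3 settings. Co-repressor genes were lower in 16, 16 and 13 and higher in 9, 9 and 6. VCPIP1 turned to 0.27 after the GC correction. The cause of these differences was not tested. With the mean of 6 libraries as the rule 45 of 103 genes were lower, and with 10 TPM in siControl 32 of 64, sets that hold fewer genes.

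Of the 41 genes named by rule, these changed sign under median-of-ratios scaling: ZNF544 (1.04), ZNF589 (0.67), ZNF703 (1.01), ZNF598 (0.05), ZNF346 (0.59), ZNF687 (0.45), ZNF592 (0.95) and ZNF263 (0.23). Among the same 41 genes, quantile normalization turned ZNF544 (0.49), ZNF589 (1.24), ZNF562 (0.64), ZNF703 (1.21), ZNF346 (1.10), ZNF687 (0.90), ZNF592 (1.36) and ZNF263 (0.71). Among them the GC correction turned ZNF706 (0.09), ZNF544 (1.60), ZNF589 (1.03), ZNF440 (0.32), ZNF562 (1.35), ZNF207 (0.02), ZNF24 (0.15), ZNF346 (0.19), ZNF768 (-0.07), ZNF592 (1.05) and ZNF451 (0.26). Genes of the set outside these 41 changed sign as well, such as ZNF496 (-0.44, and 0.71, 0.86 and 0.36 in the 3 settings). Of all 68 lower genes, 10, 27 and 29 were called higher in the 3 settings. ZNF622 ranged from -0.001 (without siVCPIP1 replicate 3) to 0.12 with 1 library left out, but was called higher at 1.26, 0.83 and 0.74 in the 3 settings, and ZNF768 at 1.42 and 0.96 under the 2 scalings.

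Leaving out 1 library at a time gave 55 to 76 ZNF genes lower and 23 to 30 higher, with medians of -0.75 to -0.52, the highest counts coming without siVCPIP1 replicate 3. All genes called lower ranged from 6742 to 7772 and higher from 1245 to 1851, and co-repressor genes from 21 to 26 lower and 0 to 1 higher. With the replicate number as a block, 63 ZNF genes were lower and 27 higher, 7085 and 1586 of all genes, VCPIP1 stood at -1.68, and the call of ZNF687 was lost (adjusted p = 0.063). Same-numbered libraries deviated from their group means with r of 0.531, -0.267 and 0.164, and not every library correlated best with its own number. The deviations of the 3 libraries in a group are tied to one another, so these values cannot decide whether the numbers pair the libraries. With no counts given, depth set no stated limit; 3 libraries per group limit the precision.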
